A study of Mus musculus with 6 samples.

Results

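The respiratory chain and ATP synthase genes were read from the gene counts of mouse femoral bone marrow cells. They were taken as every protein-coding gene whose symbol starts with mt-, Nduf, Uqcr, Sdh, Cox4, Cox5, Cox6, Cox7, Cox8 or Atp5, without Cox6a2 and without symbols containing -ps. This gave 110 of the 54532 genes in the table, 13 of them encoded by the mitochondrial genome and 97 by the nuclear genome. Wild-type mice formed both groups. In the control group 3 samples came from mice that had not been unloaded, and in the unloaded group 3 samples came from mice kept for 4 weeks under hindlimb unloading, which lifts the hind limbs off the floor and is used as a model of disuse osteoporosis. The sources used here give no age, sex or strain. They also do not state that each library is a different animal, and the p-values below reflect library-to-library spread, which may be technical.

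Oxidative phosphorylation is carried out by 5 protein complexes of the inner mitochondrial membrane. Complexes I and II feed electrons from NADH and succinate into coenzyme Q, complex III passes them to cytochrome c, complex IV hands them to oxygen, and complex V uses the resulting proton gradient to make ATP. Complex II is encoded entirely in the nucleus, and the other complexes are mosaics whose mitochondrially encoded subunits must be matched by subunits that the nuclear genome encodes and the cytosol supplies. Mitochondrial genes are transcribed from a pair of promoters as long precursors of both strands, whereas the nuclear-encoded genes read here are spread over 19 chromosomes. In marrow, oxidative capacity is known to be high in erythroid precursors and lower in mature neutrophils, the most abundant cells of the tissue.

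By complex, the mitochondrially encoded genes were 7 subunits of complex I, 1 of complex III, 3 of complex IV and 2 of complex V. Placed by symbol, the nuclear-encoded genes were 46 of complex I (38 subunits and 8 Ndufaf assembly factors) and 8 of complex II (4 subunits and 4 Sdhaf assembly factors). Another 8 were of complex III, 17 of complex IV and 18 of complex V. This placement counts Ndufa4 and its relative Ndufa4l2 under complex I, although Ndufa4 is known as a subunit of complex IV. The values given by complex keep this placement. Rows for Cox7b2, Cox8c and a second locus named Atp5o had 0 counts in all 6 libraries. A low-count filter left 103 of the 110 for testing. It removed mt-Atp8, Ndufa4l2, Cox4i2, Cox7b2, Cox8b, Cox8c and the second Atp5o row.

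Libraries held 15850986 to 17775506 counts. The unloaded 1 library stood apart from the other 5, at 51.3 on the first principal component against -13.7 to -7.37, and fold changes and counts that it moves are also given without it. Neutrophil genes were high in all libraries, as the tissue label implies, with Mpo between 3038 and 3733 CPM (read counts scaled to library size with TMM factors). Of 10 skeletal muscle markers 3 (Myh1, Myh2 and Myh4) were at 0 in every library, and the 10 summed to between 7.35 and 12.6 CPM. In a bulk sample such as this one, fewer cells of a type and less RNA per cell cannot be told apart.

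Several mitochondrial genes have near-perfect copies in the nuclear genome, which bears on how their reads can be assigned, so the copies were examined first. One block of chromosome 1 (mm10, 24611535 to 24616197) carries 7 annotated pseudogenes that run in order through copies of mt-Nd4, mt-Nd4l, mt-Nd3, mt-Co3, mt-Atp6, mt-Co2 and mt-Co1. Stretches of 60 bases are shown for a pair of subunits of complex IV that are copied without a mismatch (mt-Co3 with Gm28437 over 783 bases, mt-Co2 with Gm28661 over 681 bases) and for 2 genes whose closest annotated copy has drifted (mt-Cytb with Gm11410, 81 mismatches in 1142 bases, and mt-Nd6 with Gm11408, 33 mismatches in 519 bases). Capitals mark bases that differ between a gene and its copy. The sequences are from the GENCODE M21 transcripts, written 5′ to 3′ along the mitochondrial gene. On GRCm38 the stretches are chrM:8968-9027 (plus strand) and chr1:24613551-24613610 (minus), chrM:7323-7382 (plus) and chr1:24615196-24615255 (minus), chrM:14687-14746 (plus) and chr4:80004531-80004590 (plus), and chrM:13782-13841 (minus) and chr4:80003626-80003685 (minus).
mt-Co3: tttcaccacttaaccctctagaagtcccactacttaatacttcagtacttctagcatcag
Gm28437: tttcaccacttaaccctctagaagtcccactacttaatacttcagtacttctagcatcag
mt-Co2: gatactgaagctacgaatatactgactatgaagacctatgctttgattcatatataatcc
Gm28661: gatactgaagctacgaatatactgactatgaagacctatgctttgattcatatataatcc
mt-Cytb: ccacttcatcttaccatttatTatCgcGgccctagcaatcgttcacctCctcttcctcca
Gm11410: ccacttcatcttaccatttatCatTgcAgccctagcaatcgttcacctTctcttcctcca
mt-Nd6: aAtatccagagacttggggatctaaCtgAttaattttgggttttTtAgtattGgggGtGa
Gm11408: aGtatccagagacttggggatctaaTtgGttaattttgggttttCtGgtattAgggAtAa

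The pairs for mt-Co3 and mt-Co2 hold no capital, so no read from those stretches could be placed by sequence alone. In the mt-Cytb pair 4 of 60 bases differ, and in the mt-Nd6 pair 8 of 60. Over whole genes, the share of 100-base windows that also occurs in an annotated nuclear transcript was 99.9% for mt-Co3, 99.5% for mt-Co2, 99.5% for mt-Atp6, 98.5% for mt-Nd4l and 97.6% for mt-Nd3. It was 60.8% for mt-Nd4, 30.8% for mt-Co1 and 3.19% for mt-Nd2, and 0 for mt-Nd1, mt-Nd5, mt-Nd6, mt-Cytb and mt-Atp8. The value for mt-Atp8 covers annotated transcripts only, and sequence outside them was not examined. The chromosome 1 pseudogene Gm10925 matched both mt-Atp6 and mt-Atp8, which overlap by 43 bases. A match shorter than 100 bases gives no window, so the 0 for mt-Atp8 does not mean that it lacks a nuclear copy.

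Mitochondrially encoded genes differed between the libraries much more than nuclear-encoded ones, and 1 library carried most of that difference. The 13 mitochondrially encoded genes together took 1.03%, 0.981% and 1.21% of all counts in controls 1, 2 and 3, and 0.384%, 1.04% and 0.992% in unloaded 1, 2 and 3. Unloaded 1 was far below the other 5 libraries, while unloaded 2 and 3 lay inside the control range, so the groups overlapped (1.07% ± 0.119 in controls and 0.806% ± 0.366 after unloading, SD, n = 3). The 97 nuclear-encoded genes took 0.624%, 0.699% and 0.675% in controls and 0.702%, 0.674% and 0.695% after unloading. Here unloaded 1 had the highest value of the 6 by a narrow margin, control 1 had the lowest, and the groups overlapped again (0.666% ± 0.0382 and 0.690% ± 0.0148).

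Dividing one by the other within a library removes its depth and scaling. The ratio of mitochondrially encoded to nuclear-encoded counts was 1.65, 1.404 and 1.79 in controls and 0.547, 1.55 and 1.43 in unloaded 1, 2 and 3. Unloaded 1 was thus the single library in which nuclear-encoded counts exceeded mitochondrially encoded ones. As a difference of group means on the log2 scale, the ratio was -0.59 with all libraries and -0.11 without unloaded 1.

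Taken complex by complex, the same library was low in each. For complex I the ratio was 2.08, 1.80 and 2.31 in controls and 0.487, 2.00 and 1.69 after unloading. For complex III, where mt-Cytb alone is set against 8 nuclear subunits, it was 2.29, 1.92 and 2.52, then 0.654, 2.17 and 1.84. For complex IV it was 5.50, 4.43 and 5.72, then 2.13, 5.03 and 5.03. With mt-Co1 as the only mitochondrially encoded gene, the complex IV ratio was 5.47, 4.38 and 5.64, then 2.09, 4.97 and 4.97. Unloaded 1 lay below every other library in these 3 complexes, and unloaded 2 and 3 lay inside or just under the control range. Complex V was of another order, with ratios from 0.00551 (unloaded 1) to 0.0168 (control 3), the counts of mt-Atp6 and mt-Atp8 being very low beside those of Atp5a1 and Atp5b. Nearly all windows of mt-Atp6, mt-Co2 and mt-Co3 also occur in nuclear transcripts. The part of read placement in the differences between complexes was not tested. Complex II has no mitochondrially encoded subunit. Its nuclear genes took 0.0506%, 0.0524% and 0.0534% of counts in controls and 0.0486%, 0.0507% and 0.0543% after unloading, and these overlapped.

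**Figure D1:**
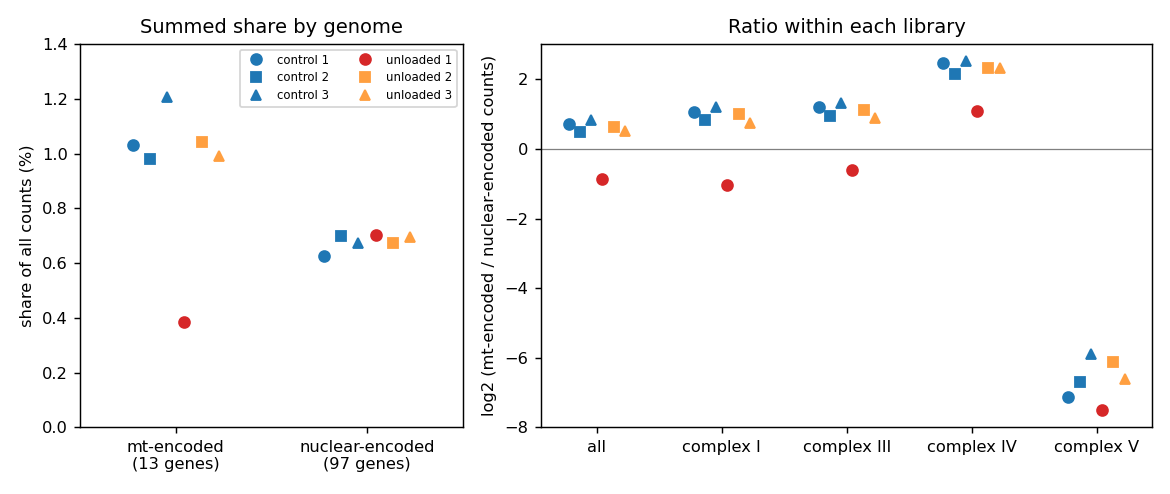
Left, the share of all counts (%) taken by the 13 mitochondrially encoded and the 97 nuclear-encoded genes in each library; right, the log2 ratio of mitochondrially encoded to nuclear-encoded counts within each library, over all complexes and for complexes I, III, IV and V. Each point is 1 library, and unloaded 1 (red) sits apart from the other 5 in the mitochondrially encoded share (0.384%) but not in the nuclear-encoded share (0.702%).

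Gene by gene, the shortfall of unloaded 1 was widest, among the abundant genes, for 4 subunits of complex I, the NADH dehydrogenase. Transcripts of mt-Nd5 (mitochondrial genome, 11742 to 13565, plus strand), which encodes a proton-pumping subunit of the membrane arm, were at 925, 848 and 1052 CPM in controls and at 164, 870 and 767 CPM in unloaded 1, 2 and 3. Unloaded 1 was at 0.184 of the mean of the other 5 libraries, with unloaded 2 inside and unloaded 3 below the control range. A second membrane-arm gene, mt-Nd2 (3914 to 4951), was at 518, 470 and 585 CPM in controls and 123, 503 and 461 CPM after unloading. The genes mt-Nd1 (2751 to 3707), whose product lies where the arms of the complex meet, and mt-Nd4 (10167 to 11544), another pumping subunit, gave the same picture. For mt-Nd1 the values were 995, 1027 and 1255 CPM in controls and 281, 1065 and 997 CPM after unloading, and for mt-Nd4 610, 606 and 743 CPM, then 175, 629 and 603 CPM.

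The remaining abundant genes were also lowest in unloaded 1, though by less. Cytochrome b, the haem-bearing core of complex III, is encoded by mt-Cytb (14145 to 15288), which was at 1483, 1424 and 1706 CPM in controls and 470, 1430 and 1332 CPM after unloading. The catalytic subunit of cytochrome c oxidase is encoded by mt-Co1 (5328 to 6872), the most abundant member of all, at 5646, 5257 and 6061 CPM in controls and 2448, 5289 and 5508 CPM after unloading. The single gene on the other strand, mt-Nd6 (13552 to 14070, minus strand), was at 236, 253 and 330 CPM in controls and 139, 250.5 and 242 CPM after unloading. Unloaded 1 was at 0.319 of the mean of the other 5 for mt-Cytb, 0.441 for mt-Co1 and 0.530 for mt-Nd6, against 0.184 to 0.275 for mt-Nd1, mt-Nd2, mt-Nd4 and mt-Nd5. Unloaded 2 lay inside the control range for all 7 of these genes, and unloaded 3 lay below it for mt-Nd2, mt-Nd4, mt-Nd5 and mt-Cytb.

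**Figure D2:**
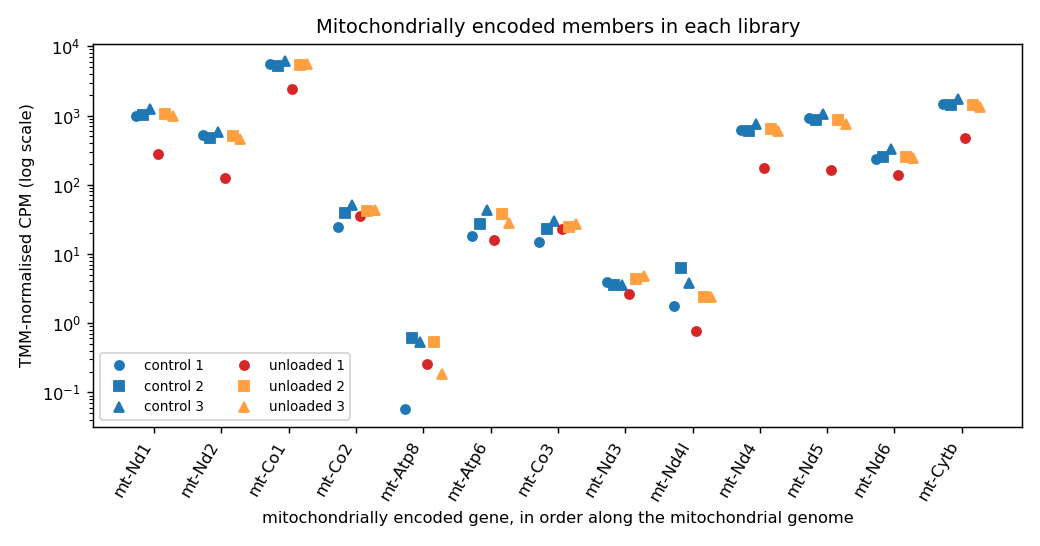
TMM-normalised CPM (log scale) of each mitochondrially encoded gene in each of the 6 libraries, in order along the mitochondrial genome; each point is 1 library. Unloaded 1 (red) lies below the other 5 for mt-Nd1, mt-Nd2, mt-Co1, mt-Nd4, mt-Nd5, mt-Nd6 and mt-Cytb. It is also below them for mt-Nd3, mt-Nd4l and mt-Atp6, which have low counts, and among them for mt-Co2, mt-Co3 and mt-Atp8.

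The other 6 mitochondrially encoded genes were counted at far lower levels. For mt-Co3 (8607 to 9390), a core subunit of complex IV, the values were 14.9, 23.1 and 30.4 CPM in controls and 23.3, 24.6 and 27.5 CPM after unloading. For mt-Co2 (7013 to 7696), which carries the copper centre that takes electrons from cytochrome c, they were 24.3, 38.9 and 51.3 CPM, then 34.8, 42.3 and 43.3 CPM. Here control 1 was the lowest library and unloaded 1 lay inside the range of the others. The gene mt-Atp6 (7927 to 8607), for the membrane subunit of the ATP synthase that forms the proton path, was at 18.2, 26.8 and 43.8 CPM in controls and 15.7, 38.2 and 28.3 CPM after unloading. The small complex I subunit gene mt-Nd4l (9877 to 10173) was at 1.77, 6.27 and 3.82 CPM, then 0.765, 2.42 and 2.41 CPM, and mt-Nd3 (9459 to 9806) at 3.95, 3.56 and 3.52 CPM, then 2.68, 4.36 and 4.81 CPM. Just 1 to 10 counts per library were given to mt-Atp8 (7766 to 7969), whose last 43 bases overlap mt-Atp6.

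Set per kilobase of the deposited gene length, control means were 3660 CPM per kb for mt-Co1, 1344 for mt-Cytb, 1141 for mt-Nd1 and 474 to 525 for mt-Nd2, mt-Nd4, mt-Nd5 and mt-Nd6. They were 55.8 for mt-Co2, 43.4 for mt-Atp6, 29.1 for mt-Co3, 13.3 for mt-Nd4l, 10.6 for mt-Nd3 and 1.94 for mt-Atp8. Apart from mt-Atp8, the 5 genes with 97.6% or more of their windows in nuclear transcripts were thus the lowest. The pseudogenes held few counts as well: Gm28437 had 149, 284 and 349 counts in controls and 257, 285 and 276 after unloading, beside 261, 384 and 517, then 365, 417 and 445, for mt-Co3 itself. Gm28661 had 338 to 558 counts per library and mt-Co2 425 to 873. Even a gene and its copy summed therefore stayed far below the 38419 to 103211 counts of mt-Co1. The sources used here do not say how reads with several placements were counted, and the part this played in the low values of these 6 genes was not tested.

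**Figure D3:**
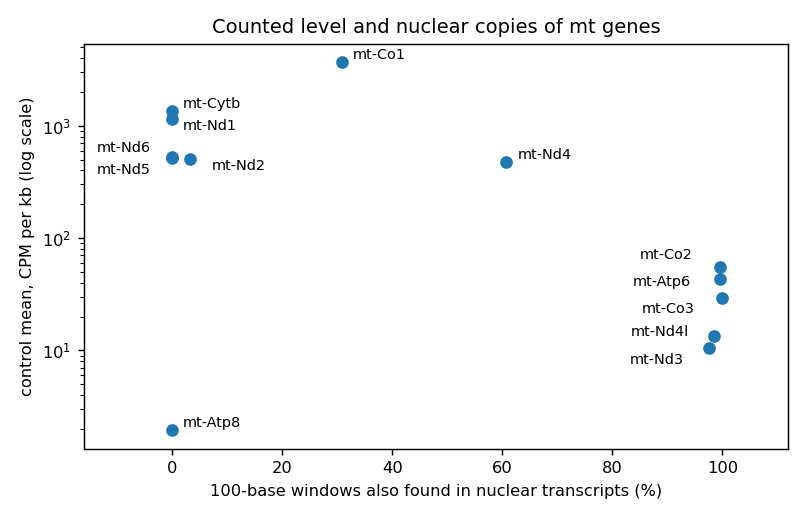
Control mean level of each mitochondrially encoded gene (CPM per kb, log scale) against the share of its 100-base windows that also occurs in annotated nuclear transcripts (%). The 5 genes at 97.6% to 99.9% lie between 10.6 and 55.8 CPM per kb, and mt-Atp8, at 0%, lies lowest at 1.94. Sequence outside annotated transcripts was not examined, so 0% does not mean that mt-Atp8 lacks a nuclear copy.

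Restricting the comparison to the 5 abundant genes with at most 3.19% of windows in nuclear transcripts (mt-Nd1, mt-Nd2, mt-Nd5, mt-Nd6 and mt-Cytb) left the pattern in place. Together they took 0.409%, 0.395% and 0.502% of counts in controls and 0.117%, 0.423% and 0.376% after unloading. The 6 low genes together took 0.00622%, 0.00975% and 0.0136% in controls and 0.00767%, 0.0115% and 0.0106% after unloading, with unloaded 1 inside the range.

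The composition of the mitochondrially encoded counts also differed in unloaded 1. There mt-Co1 made up 63.1% of them, against 51.1% to 55.0% in the other 5 libraries. The share of mt-Nd5 was 4.24% against 7.66% to 8.87%, that of mt-Nd1 7.25% against 9.50% to 10.6%, and that of mt-Nd2 3.18% against 4.60% to 4.96%. The share of mt-Nd6, which lies on the opposite strand and overlaps mt-Nd5 by 14 bases, was 3.58% against 2.25% to 2.78%. The sources used here do not say whether the counting used strand, so reads of this overlap cannot be told apart. For the same reason, reads from either strand over the rest of mt-Nd6 cannot be told apart.

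In edgeR's quasi-likelihood test over 15015 genes, 0 genes (0%) were called at an adjusted p under 0.05, and 0 members were. At an unadjusted p under 0.05, 401 genes (2.67%) were higher and 478 (3.18%) lower after unloading, and among the 103 members tested 2 were higher and 1 lower. DESeq2 called 35 genes (0.233%), limma-voom 0, and neither called a member. Without unloaded 1 edgeR called 5 of 15438 genes (0.0324%) and no member.

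Of the 12 mitochondrially encoded genes tested, 9 had a negative log2 fold change and 3 (mt-Nd3, mt-Co2 and mt-Co3) a positive one. Their median was -0.43, against 0.005 over all genes tested, and -0.08 without unloaded 1, when 8 of 12 were negative. None had 3 unloaded values all above or all below the controls. The fold change of mt-Nd5 was -0.65 ± 0.44 (SE; edgeR adjusted p = 0.896) and -0.20 without unloaded 1. For mt-Co1 it was -0.36 ± 0.24 (edgeR adjusted p = 0.896), or -0.07 without that library, and for mt-Nd4l -1.07 ± 0.50 (edgeR adjusted p = 0.848), or -0.71. The value of mt-Atp6 was -0.11 ± 0.33 and turned to 0.17 without unloaded 1.

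The low-count filter decided calls among these genes. When every gene with a count was kept, edgeR called 183 of 27287 genes (0.671%), among them mt-Nd5 (adjusted p = 0.000190), mt-Nd2 (0.00605), mt-Cytb (0.0117), mt-Nd1 (0.0236) and mt-Nd4 (0.0256), all 5 lower after unloading. Over the other alternatives run, the adjusted p of these 5 genes reached 0.999. When unloaded 1 was left out as well, 275 of 26778 genes (1.03%) were called and 0 members, with 0.491 the smallest adjusted p of a mitochondrially encoded gene. The unfiltered calls of these 5 genes were thus absent without that library.

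Unloaded 1 had the lowest value of the 6 libraries for 10 of the 12 mitochondrially encoded genes, and for 29.5% of all genes tested. For the nuclear-encoded genes it was the lowest for 24 of 91 (26.4%) and the highest for 29 of 91 (31.9%). Over all genes tested it was the highest for 28.2%. Against the mean of the other 5, its log2 level had a median of -1.24 over the mitochondrially encoded genes, with 12 of 12 below, and of 0.008 over the nuclear-encoded genes, with 45 below and 46 above. Control 3 was the highest library for 10 of 12 mitochondrially encoded genes, and for 12.6% of all genes tested. Control 1 was the lowest for 37 of 91 nuclear-encoded genes (40.7%) and for 16.6% of all genes tested. Its median over the nuclear-encoded genes was -0.14 against the mean of the other 5.

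Markers of other cell types differed in unloaded 1 as well. Erythroid markers summed to 1586 CPM in unloaded 1 and to 1815 to 2669 CPM in the others, with 6 of 9 below the range of the others, and stromal and bone markers to 63.5 CPM against 80.0 to 146 CPM, where 1 of 5 (Col1a1) was below that range. Monocyte markers summed to 2397 CPM against 1783 to 2303 CPM, with 4 of 6 above the range of the others and 1 (Ly6c2) below it. The sum of basophil and mast cell markers was 1033 CPM against 404 to 519 CPM, which came from Hdc, a gene of histamine synthesis, since the other 3 markers of that list were below the range of the others. The part of cell mixture in the low mitochondrially encoded counts of this library was not tested. Neutrophil markers of the precursor, granule and mature stages and muscle markers were inside the range of the other libraries as sums, but of 7 mature neutrophil markers 3 were above it (among them Retnlg) and 2 below (Mmp9 and Il1b). Between the groups, mature neutrophil markers summed to 8113 to 8422 CPM in controls and 7447 to 8060 CPM after unloading, and megakaryocyte and platelet markers to 94.0 to 99.7 CPM and 68.5 to 83.9 CPM. Neither pair of ranges overlapped, and the part of these cells in the members whose groups did not overlap was not tested.

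**Figure D4:**
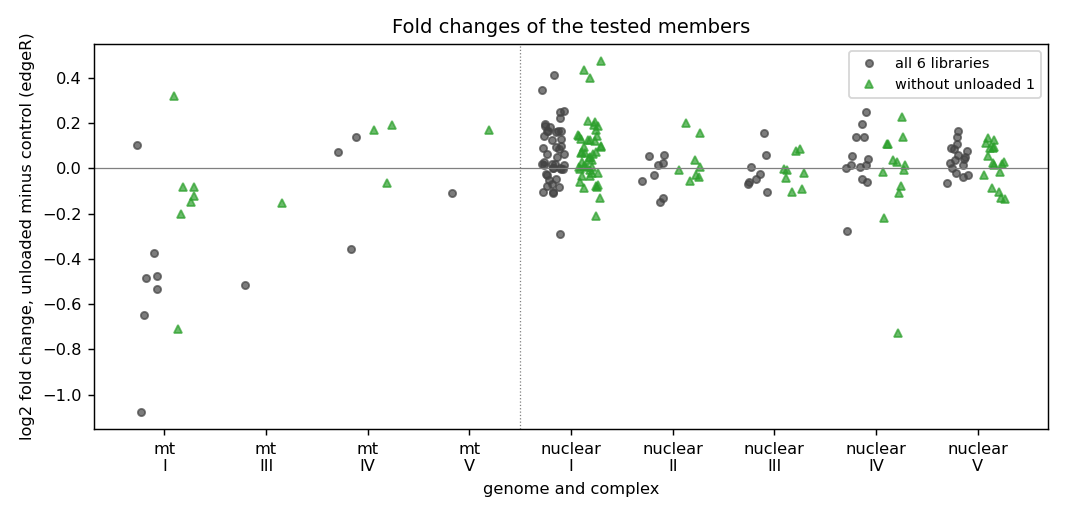
Log2 fold change, unloaded minus control (edgeR), of each tested gene by genome and complex, with all 6 libraries (grey circles) and without unloaded 1 (green triangles); each point is 1 gene. Most mitochondrially encoded values move toward 0 without unloaded 1 (median -0.43 to -0.08), and the nuclear-encoded values stay near 0 (median 0.02 to 0.03).

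Nuclear-encoded genes of all 5 complexes were at similar levels in both groups. Of the 91 tested, 61 had a positive and 30 a negative log2 fold change, from -0.29 to 0.41, with a median of 0.02. Without unloaded 1, 56 were positive and 35 negative, from -0.73 to 0.47, with a median of 0.03. By complex the medians were 0.05 for I, -0.006 for II, -0.04 for III, 0.02 for IV and 0.04 for V. The 3 unloaded values were all above the 3 control values for 4 genes (Ndufa10, Ndufaf1, Ndufc1 and Ndufs3), all of complex I, and all below for 1 (Cox8a). Over all genes tested these shares were 5.46% above and 6.4% below, and 4 and 1 of 91 are no larger than that.

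Complex I holds the most nuclear members. Its catalytic core is described by Ndufs1 and Ndufv1, which encode an iron-sulfur and the NADH-binding subunit. Ndufs1 was at 75.1, 78.3 and 89.8 CPM in controls and 66.8, 84.0 and 93.0 CPM in unloaded 1, 2 and 3. For Ndufv1 the values were 74.98, 84.9 and 85.9 CPM, then 115, 79.1 and 87.7 CPM. Both overlapped between the groups, and the high value of Ndufv1 was in unloaded 1. Their log2 fold changes were 0.003 ± 0.13 and 0.20 ± 0.14 (SE), and 0.13 and 0.03 without unloaded 1.

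Of the 3 members with an unadjusted p under 0.05, 2 belonged to complex I. Ndufaf1 (ENSMUSG00000027305, mm10 chromosome 2, 119655446 to 119662827), an assembly factor that helps build the membrane arm, was at 9.61, 9.71 and 10.04 CPM in controls and 13.3, 11.7 and 14.1 CPM after unloading. The controls lay close together and all unloaded values were above them (log2 0.41 ± 0.16; unadjusted p = 0.0243, edgeR adjusted p = 0.804). Ndufa10 (ENSMUSG00000026260, chromosome 1, 92439010 to 92473860), an accessory subunit, was at 65.5, 67.6 and 67.7 CPM, then 88.1, 76.9 and 73.6 CPM (log2 0.25 ± 0.11; unadjusted p = 0.0380, edgeR adjusted p = 0.813). Without unloaded 1 these fold changes were 0.40 and 0.17. The other 2 genes without overlap differed by less. Ndufs3, a core subunit, was at 31.3, 38.3 and 37.4 CPM, then 40.2, 38.5 and 39.5 CPM, and the accessory subunit gene Ndufc1 at 19.9, 18.3 and 19.03 CPM, then 20.8, 20.7 and 22.7 CPM, with log2 fold changes of 0.14 ± 0.12 and 0.17 ± 0.13. Neither Ndufaf1 nor Ndufa10 was called in any of the fits run. Over the alternatives, the adjusted p ran from 0.501 to 0.999 for Ndufaf1 and from 0.572 to 0.999 for Ndufa10. Next in rank among the higher complex I genes were Ndufb2 (0.34 ± 0.22, or 0.15 without unloaded 1) and Ndufs7 (0.19 ± 0.13, or 0.07), and among the lower the assembly factor Ndufaf8 (-0.29 ± 0.21, or -0.21).

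Complex II, succinate dehydrogenase, links the citric acid cycle to the chain. Sdha, for its flavoprotein subunit, was at 203, 209 and 203 CPM in controls and 214, 202 and 210 CPM after unloading. Sdhb, for the iron-sulfur subunit, was at 78.9, 91.0 and 83.6 CPM, then 83.3, 78.3 and 94.8 CPM. The membrane anchors Sdhc and Sdhd were lowest in unloaded 1, at 52.6 CPM against 66.7 to 72.7 CPM in the others and at 87.8 CPM against 97.03 to 117 CPM. None of the 4 subunits separated the groups, with log2 fold changes from -0.15 (Sdhc) to 0.02 (Sdha), and from -0.04 (Sdhd) to 0.04 (Sdhb) without unloaded 1. The 4 Sdhaf factors had fold changes from -0.06 to 0.06, and from -0.06 to 0.20 without that library.

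In complex III, Uqcrc1 and Uqcrc2 encode the core proteins and Uqcrfs1 the Rieske iron-sulfur protein. Uqcrc1 was at 211, 239 and 212 CPM in controls and 269, 220 and 248 CPM after unloading. Uqcrfs1 was at 103, 107 and 102 CPM, then 89.8, 102 and 105 CPM. Uqcrc2 was at 103, 110.1 and 112.3 CPM, then 89.0, 105 and 109 CPM. Unloaded 1 was highest for Uqcrc1 and lowest for Uqcrc2 and Uqcrfs1, so within 1 complex its nuclear-encoded subunits lay on both sides of the other libraries, and the groups overlapped for all 3. Fold changes of the 8 genes ran from -0.10 (Uqcrc2) to 0.15 (Uqcrc1), which were -0.02 and 0.09 without unloaded 1.

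Cytochrome c oxidase, complex IV, held the remaining member with an unadjusted p under 0.05, which was lower after unloading. Cox8a (ENSMUSG00000035885, mm10 chromosome 19, 7215158 to 7217616), the ubiquitous form of a small subunit, was at 128, 151 and 130 CPM in controls and 103, 119.5 and 115 CPM after unloading. Each unloaded value was below each control value (log2 -0.28 ± 0.11; unadjusted p = 0.0283, edgeR adjusted p = 0.804), and the fold change was -0.22 without unloaded 1. Over the fits with 1 library left out it ran from -0.33 to -0.20. Other subunits of the enzyme did not separate the groups. Cox4i1, a regulatory subunit, was at 208, 244 and 213 CPM, then 278, 224 and 231 CPM, and Cox5a at 64.3, 64.5 and 65.6 CPM, then 63.4, 61.2 and 70.8 CPM. Their log2 fold changes were 0.14 ± 0.12 and 0.007 ± 0.10, and 0.04 and 0.03 without unloaded 1. Cox7a2l, which helps join complexes III and IV into supercomplexes, was at 129, 145 and 129 CPM, then 188, 123 and 132 CPM, with only unloaded 1 outside the control range on the high side. Its fold change was 0.14 ± 0.15 and turned to -0.08 without that library.

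ATP synthase genes were the most abundant nuclear members. Atp5b, for the catalytic beta subunit, was at 739, 800.5 and 756 CPM in controls and 854, 783 and 805 CPM after unloading, and Atp5a1, for the alpha subunit, at 647, 686 and 666 CPM, then 751, 664 and 695 CPM. Both were highest in unloaded 1 and overlapped between the groups, with log2 fold changes of 0.09 ± 0.10 and 0.08 ± 0.10, and of 0.05 and 0.03 without that library. In the same library mt-Atp6 had its lowest value, 15.7 CPM. The 17 tested genes of complex V had fold changes from -0.06 to 0.17, the last being Atp5o, a stalk subunit (0.17 ± 0.11, or 0.10 without unloaded 1).

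Per kilobase of the deposited gene length, the subunits of the complexes spanned different ranges of level in controls. The median was 25.6 CPM per kb in complex I, from 1.47 (Ndufb2) to 87.0 (Ndufb11), over 37 tested subunits. It was 43.7 in complex II (Sdhc 21.7 to Sdhd 89.5), 51.1 in complex III (Uqcrb 28.1 to Uqcr10 78.8), 43.6 in complex IV (Cox7a1 1.31 to Cox8a 250.1) and 48.2 in complex V (Atp5l 8.69 to Atp5a1 213). After unloading the medians were 26.8, 44.4, 53.1, 44.0 and 48.9 CPM per kb. The deposited length of Ndufb2, the lowest in complex I on this scale, is 5628 bases, and how far such lengths match the transcripts present was not tested.

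**Figure D5:**
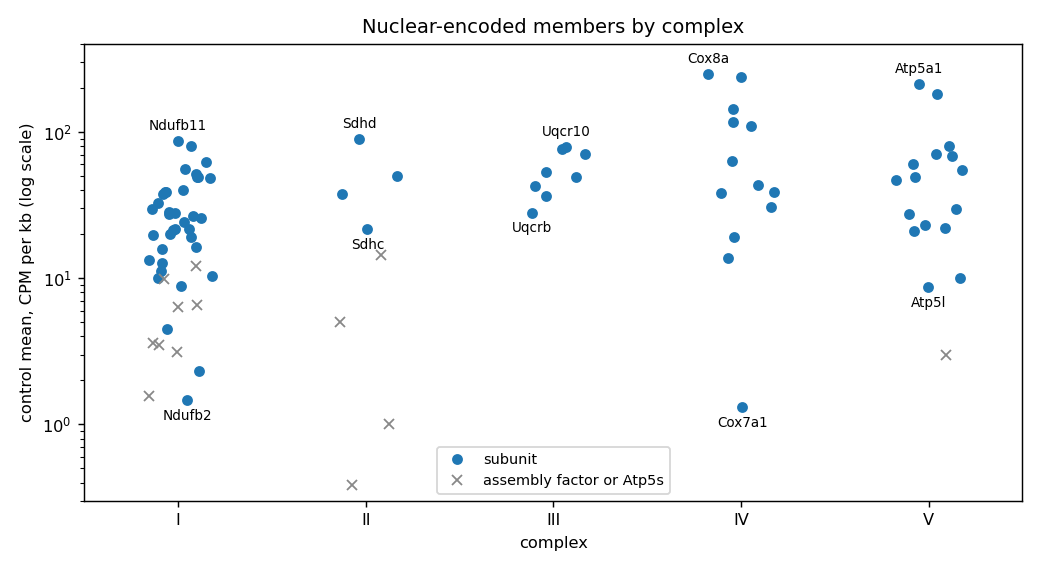
Control mean level (CPM per kb of deposited gene length, log scale) of the tested nuclear-encoded genes by complex; each point is 1 gene, crosses are assembly factors and Atp5s. The lowest and highest subunits are named, from 1.31 (Cox7a1) to 250.1 (Cox8a).

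Several subunits come in tissue forms, and the ubiquitous ones held nearly all the counts. Per length, the lung form Cox4i2 made up 0% to 0.628% of Cox4i, and the heart and muscle forms Cox7a1 and Cox8b made up 1.12% to 4.70% of Cox7a1 with Cox7a2 and 0% to 0.446% of Cox8a with Cox8b. Cox7a1 was highest in unloaded 1, with 25 counts against 7 to 15 in the others, and its fold change of 0.20 ± 0.58 turned to -0.73 without that library. Ndufa4l2, a hypoxia-inducible relative of Ndufa4, made up 0% to 0.329% of the pair. Cox7b2 and Cox8c, forms known from testis, had 0 counts, which allows up to 0.169 to 0.189 CPM per library, a limit for counting error only.

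Cox6b2 was the exception. This form of subunit VIb is known from testis, yet it made up 9.08%, 12.4% and 11.7% of Cox6b per length in controls and 12.6%, 12.2% and 13.2% after unloading. The level of Cox6b2 was 11.1, 17.9 and 16.9 CPM in controls and 18.7, 17.3 and 18.5 CPM after unloading, with control 1 apart and the groups overlapping (log2 0.25 ± 0.18, edgeR adjusted p = 0.896). Cox6b1, the common form, was at 71.0 to 82.6 CPM in all libraries. Of the 3 genes that encode the same mature ring subunit c of ATP synthase, Atp5g3 made up 43.0% to 46.9% per length. The share of Atp5g2 was 48.8%, 47.2% and 48.4% in controls and 44.5%, 47.1% and 44.8% after unloading, and that of Atp5g1 was 8.21%, 7.90% and 8.17%, then 8.62%, 8.58% and 8.65%. Neither set of shares overlapped between the groups, by a narrow margin for Atp5g2, and no test was made of these shares. The shares of the 3 genes are parts of the same whole, so they do not vary independently. Among single genes tested, 5.46% had all unloaded values above the controls and 6.4% all below. Atp5g2 shares 34.7% of its 100-base windows with other annotated genes, so its counts are less certain. The same holds for 14 of the 97 nuclear members at over 10%, led by the second Atp5o row (77.03%), Sdhaf1 (68.3%) and Ndufaf2 (62.4%), while 61 share none.

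Nuclear members are known targets of the nuclear respiratory factors NRF1 and GABPA, and of YY1. RefSeq promoter sequences (GRCm38.p6, 250 bases before to 50 after the start) were found for 78 of the 97, giving 83 promoters. Both strands were searched for GCGCATGC (NRF1), CCGGAAG (ETS factors such as GABPA) and AAGATGGC (YY1), and in no member promoter did matches of different motifs overlap. The NRF1 letters were in 14.5% of the member promoters against 2.71% of all 32851, the ETS letters in 25.3% against 8.86%, and the YY1 letters in 12.05% against 2.75%. A match describes letters, not binding, and the promoters compared were not matched for base composition or expression. Promoters are shown for Cox8a, whose 3 unloaded values were all below the controls (chr19:7217567-7217866, minus strand), and for Uqcrc1, whose groups overlapped (chr9:108936398-108936697, plus strand), 5′ to 3′ with the matches in capitals, a pair of ETS matches in the first and NRF1 matches on both strands in the second.
Cox8a: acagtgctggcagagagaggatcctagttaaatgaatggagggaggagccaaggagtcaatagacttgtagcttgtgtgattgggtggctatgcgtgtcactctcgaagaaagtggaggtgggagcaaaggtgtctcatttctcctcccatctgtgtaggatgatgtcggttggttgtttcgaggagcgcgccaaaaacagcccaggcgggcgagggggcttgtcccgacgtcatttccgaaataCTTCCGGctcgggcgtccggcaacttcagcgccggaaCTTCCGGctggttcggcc
Uqcrc1: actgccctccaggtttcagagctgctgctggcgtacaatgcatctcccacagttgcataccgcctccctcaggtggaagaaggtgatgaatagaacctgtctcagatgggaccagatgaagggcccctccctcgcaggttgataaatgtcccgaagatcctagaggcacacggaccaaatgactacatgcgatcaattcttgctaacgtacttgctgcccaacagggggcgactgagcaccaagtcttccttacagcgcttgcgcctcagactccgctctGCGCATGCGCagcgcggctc

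Genes that maintain, express and assemble the chain were read from 7 lists, and 0 of their members were called by edgeR. For transcription and replication of mitochondrial DNA, 11 of 19 tested genes had a positive and 8 a negative log2 fold change, with a median of 0.07. Without unloaded 1 these were 16 and 3, with a median of 0.19. Twnk, the helicase of the mitochondrial genome, was at 18.6, 18.4 and 19.2 CPM in controls and 21.03, 21.1 and 22.8 CPM after unloading, with no overlap (0.21 ± 0.12, edgeR adjusted p = 0.890). It was the 1 gene of these 19 that lay above all controls, beside 5.46% of all genes tested. Polg2, for the accessory subunit of the mitochondrial DNA polymerase, was at 0.25 ± 0.17. In unloaded 1, at 21.03 and 32.1 CPM, both genes lay above their highest control value.

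For processing and stability of mitochondrial RNA, 15 of 19 tested genes were positive and 4 negative, with a median of 0.09 (18 and 1, with a median of 0.11, without unloaded 1), and 1 was at an unadjusted p under 0.05. That was Tbrg4, a member of the FASTK family of RNA-binding proteins, at 84.4, 86.2 and 87.8 CPM in controls and 108, 96.4 and 99.9 CPM after unloading (0.24 ± 0.10; unadjusted p = 0.0337, edgeR adjusted p = 0.805). Supv3l1, the helicase of mitochondrial RNA decay, had 0.28 ± 0.15. In unloaded 1, where mitochondrially encoded transcripts were low, Tbrg4 had its highest value and Supv3l1 an inner one.

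Among 34 tested assembly factors named outside the rule, 20 were positive and 14 negative (median 0.05), or 23 and 11 without unloaded 1 (median 0.07). Ecsit, a complex I assembly protein with a further role in innate signalling, was at 12.7, 16.6 and 14.3 CPM in controls and 19.4, 17.4 and 20.2 CPM after unloading (0.39 ± 0.15; unadjusted p = 0.0262, edgeR adjusted p = 0.804). Uqcc2, an assembly factor of complex III, had 0.30 ± 0.15, also without overlap. Of the 34 genes 2 lay above all controls and 1 below, beside 5.46% and 6.4% of all genes tested. Of 19 genes for electron carriers and coenzyme Q synthesis 11 were positive and 8 negative (13 and 6 without unloaded 1), with Dhodh, which feeds electrons from pyrimidine synthesis into coenzyme Q, at 0.30 ± 0.15 and Coq4 at 0.31 ± 0.17.

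In the citric acid cycle 7 of 17 genes were positive and 10 negative (median -0.01), which turned to 13 and 4 without unloaded 1 (median 0.03). Dlst was at 0.14 ± 0.10 and Suclg2 at -0.23 ± 0.21, the latter with its low value, 14.4 CPM, in unloaded 1 against 22.8 to 28.2 CPM elsewhere and a fold change of 0.0009 without that library. Regulators of mitochondrial biogenesis had 4 of 10 positive and 6 negative (median -0.04), with Pprc1 at 0.15 ± 0.10 and Ppard at 0.19 ± 0.13 (0.07 without unloaded 1), while Ppargc1a (0.330 CPM in controls) and Ppara (listed at 0) were too low to test. Outer membrane and import genes had 9 of 16 positive and 7 negative (median 0.03), or 14 and 2 without unloaded 1 (median 0.11). Leading them was the import motor gene Timm44 (0.25 ± 0.13, or 0.16 without unloaded 1). The translocase gene Timm50 followed (0.17 ± 0.11, or 0.10), and both were without overlap between the groups. In this list 3 of 16 genes lay above all controls and 0 below, beside 5.46% and 6.4% of all genes tested. Genes of the 7 lists were named for their smallest p, so a lack of overlap is no separate evidence for them. Medians of all 7 lists lay between -0.04 and 0.09, beside 0.005 over all genes tested, and between -0.04 and 0.19 without unloaded 1, beside 0.002.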

How the data were processed

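RNA-seq was made from total RNA of fresh marrow cells, 3 libraries a group, and each library was placed by its title. Per the submitters' processing notes, the tools were CASAVA, HISAT2 2.0.5 and featureCounts 1.5.0-p3, and the build was mm10. Annotation release, strandedness of counting and handling of multiply placed reads: not given in the sources used here. The deposited values were raw read counts per gene, with no normalization by the authors, as their whole numbers and differing totals show; the gene lengths used are the deposited ones. Depth limits the precision of low genes, and 3 counts, the limit for a gene at 0, equal 0.169 to 0.189 CPM.

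Genes were filtered with edgeR's filterByExpr, scaled with TMM factors and compared with edgeR 4.0.16 (glmQLFit, glmQLFTest, R 4.3.3), with Benjamini-Hochberg adjustment over all 15015 genes and calls at an adjusted p under 0.05. The fit was tested on simulated data. Shares, ratios and medians over genes are descriptions without a p. Alternatives were RLE and upper-quartile factors, DESeq2 1.42.0, limma-voom (limma 3.58.1), other low-count filters, other denominators for the shares, the replicate number as a block, and each library left out in turn. Fits that join 2 of these, and the 5 genes with few nuclear copies, were added after seeing the data.

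Nuclear copies were found in the GENCODE M21 transcripts, as exact matches of 100-base windows (75 and 150 bases gave the same order at the top) and with BLAST 2.17.0. All 110 members were in that annotation by gene ID, 103 with the same coordinates. The members and the other gene lists were chosen with earlier results of these data known. Genes were named by rule: all mitochondrially encoded members, the core subunits (1 is not reported here), the highest per length in each complex, the tissue forms, the 5 nuclear members with the smallest p in each direction, and the 2 with the smallest p in each other list; Mpo, Hdc and the remaining genes outside it were named after their values were seen.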

Additional observations from a re-analysis of the deposited data

How the results depend on the processing

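The log2 differences of the mitochondrially encoded share (-0.54) and of its ratio to nuclear-encoded counts (-0.59), and the median of mitochondrially encoded genes, stayed negative under every alternative run for them; with 1 library left out at a time they ran from -0.79 to -0.07, from -0.86 to -0.11 and from -0.63 to -0.08, the smallest sizes being without unloaded 1. The nuclear-encoded median lay near 0 throughout, from -0.01 to 0.08. The number of genes called, 0 in the test reported, was 35 with DESeq2 and 183 with no low-count filter. Without unloaded 1 it was 67 with DESeq2, 3 with limma-voom and 275 with no filter, and edgeR called between 0 and 5 genes with any 1 library left out; fewer samples enter these fits, and the cause was not tested. The replicate numbers did not pair the libraries (correlations of deviations 0.0309, -0.0633 and 0.0185 between same-numbered libraries); with the replicate number as a block, 1 gene was called, no member among them, and the median of the mitochondrially encoded genes was -0.55. For named genes, 898 of 959 values kept direction and side, 56 reversed and 5 passed the threshold, these 5 being mitochondrially encoded genes with no filter. The cause of the reversals was not tested. On the log2 scale, Ndufs1 was -0.0054 with limma-voom, -0.0044 with no filter and -0.0057 with the replicate block, Cox5a -0.0018 and Uqcr10 -0.0025 with no filter, Cox7a1 -0.058 with limma-voom, and Ndufb11 0.017 with upper-quartile factors and 0.00034 with a minimum of 1 CPM in 3 libraries. Without unloaded 1, DESeq2, limma-voom and the unfiltered fit gave 0.17, 0.25 and 0.17 for mt-Atp6, -0.74, -0.66 and -0.72 for Cox7a1, -0.079, -0.076 and -0.077 for Cox7a2l, 0.0088, 0.010 and 0.011 for Ndufa4 and -0.0072, -0.00096 and -0.0051 for Uqcr10. For Suclg2 limma-voom and the unfiltered fit gave 0.0084 and 0.0010. With 1 library left out at a time, the values ran from -0.062 to 0.32 for mt-Nd3, from -0.17 to 0.35 for mt-Co2, from -0.093 to 0.40 for mt-Co3, from -0.43 to 0.29 for mt-Atp6, from -0.11 to 0.13 for Ndufs1, from -0.066 to 0.073 for Sdhb, from -0.058 to 0.047 for Cox5a, from -0.13 to 0.078 for Ndufb11, from -0.066 to 0.067 for Uqcr10, from -0.11 to 0.014 for Cox6a1, from -0.022 to 0.072 for Cox6b1, from -0.73 to 0.51 for Cox7a1, from -0.014 to 0.11 for Cox7a2, from -0.078 to 0.25 for Cox7a2l, from -0.049 to 0.11 for Cox7b, from -0.082 to 0.011 for Ndufa4, from -0.39 to 0.00089 for Suclg2. Depth limits mt-Atp8 (1 to 10 counts), mt-Nd4l and Cox7a1, whose values rest on few counts.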

Other observations

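Other rows of the mitochondrial genome were outside the protein-coding members. The ribosomal RNA genes mt-Rnr1 and mt-Rnr2 had control levels of 251 ± 11.1 and 416 ± 58.0 CPM and unloaded levels of 229 ± 37.8 and 383 ± 57.1 CPM (SD over 3 libraries). In unloaded 1 they were at 204 and 343 CPM, 0.825 and 0.833 of the mean of the other 5 libraries, where the 7 abundant mRNA genes were at 0.184 to 0.530. The 22 transfer RNA genes together had 184 counts in unloaded 1 and 286 to 369 in the others. Cox6a2, the muscle form of a complex IV subunit that the selection leaves out, had 5.23 ± 0.482 CPM in the control libraries and 3.95 ± 0.852 CPM in the unloaded ones (SD over 3 libraries). In the chromosome 1 block, unloaded 1 had 24 counts of Gm28439, the copy of mt-Nd4, against 77 to 162 in the others, and 257 of Gm28437, the copy of mt-Co3, against 149 to 349.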
